A study of Mus musculus with 6 samples.

Results

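The 10 acid-base genes of intercalated cells, Atp6v1b1, Atp6v0d2, Atp6v1g3, Atp6v0a4, Slc4a1, Slc26a4, Foxi1, Car2, Rhcg, and Slc4a4, were followed in the kidneys of wild-type (WT) and Selenbp1-KO mice. They were taken by gene name, as every probe carrying such a name whatever its values, from a list of genes drawn up with earlier results of these data known, which gave 14 of the 56605 probes on the array and 10 of the 37028 genes tested. No member passed the threshold used in the study (unadjusted p under 0.05 in limma's test), in either direction. Of all genes 8.00% passed it, and of those well above background 5.79%. By estimate 6 were higher and 4 lower in Selenbp1-KO kidneys, from 0.40 higher (Atp6v1b1) to 0.20 lower (Slc26a4) on the log2 scale.

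The WT group was 3 male C57BL/6J mice and the Selenbp1-KO group 3 male mice of the same strain without a functional Selenbp1 gene. All were 8 weeks old and had been fasted for 20 h, and total RNA of the left kidney of each mouse was hybridized to a one-color array. The WT mice were bought from a breeder, and whether they were littermates of the Selenbp1-KO mice is not given in the sources used here. The mouse is the replicate, WT mice carry the numbers 2, 3, and 4 and Selenbp1-KO mice 1, 2, and 3, and with 3 arrays a group the number of arrays limits the precision. The 6 arrays lie on 1 slide. WT replicates 2 and 3 are on slide side 1, and WT replicate 4 and the 3 Selenbp1-KO arrays are on slide side 2, so that within a side the only contrast is that between WT replicate 4 and the Selenbp1-KO arrays (the within-side difference below). Selenbp1 itself had log2 signals of 7.02 to 7.07 in WT and 3.98 to 4.13 in Selenbp1-KO kidneys, still well above background, and every array had the genotype of its label.

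Intercalated cells are the acid-base cells of the connecting tubule and collecting duct. Type A cells secrete protons into the urine with a vacuolar H+-ATPase on their apical membrane and return bicarbonate to the blood through the anion exchanger AE1, and type B cells secrete bicarbonate through the apical exchanger pendrin. Both rest on carbonic anhydrase II, which hydrates carbon dioxide inside the cell, and both need the forkhead transcription factor Foxi1 to form. Ammonia, made largely in the proximal tubule, leaves the collecting duct cell through Rh glycoproteins and carries most of the acid that the kidney excretes. Several of the genes are not restricted to these cells. Car2 and Slc4a1 are also genes of red blood cells, Atp6v0d2 of macrophages and osteoclasts, and Car2 of osteoclasts too. Slc4a4 encodes NBCe1, which carries bicarbonate out of the proximal tubule cell, so its values are not a reading of intercalated cells. The other cell types named here are examples and not a complete list for these genes. In whole kidney RNA, fewer cells of a type and less RNA per cell cannot be told apart.

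Of the 10 genes, 8 were read by 1 probe each, Atp6v0d2 by 2, and Slc4a4 by 4. Probe sequences are shown for the V-ATPase subunit genes Atp6v1b1 and Atp6v0d2, since 1 of these probes gave the largest difference among the members and the other 2 read the same gene. The Atp6v1b1 probe (NM_134157) lies on mm9 chromosome 6 from 83706880 to 83707858 on the plus strand, a span longer than its 60 bases, so it crosses an exon junction. The Atp6v0d2 probes (NM_175406) lie on the minus strand of mm9 chromosome 4 from 19805367 to 19805426 and from 19837769 to 19837828. All 3 have a reading frame with no stop codon over their whole length, and they are written 5′ to 3′ as deposited. The probes of Atp6v1g3 and Atp6v0a4 have such a frame too, so it does not mark a probe as coding.
Atp6v1b1: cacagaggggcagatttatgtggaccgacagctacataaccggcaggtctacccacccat
Atp6v0d2, brighter probe: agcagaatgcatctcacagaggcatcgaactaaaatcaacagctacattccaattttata
Atp6v0d2, dimmer probe: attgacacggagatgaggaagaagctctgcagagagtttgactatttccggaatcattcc

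A promoter window from RefSeq (GRCm38.p6) was at hand for 7 of the 10 genes, with 2 windows for Slc4a4 and none for Slc4a1, Car2, and Atp6v0d2. Foxi1 is a forkhead factor, so the windows were searched on both strands for the forkhead core in the forms TATTTAC or TATTTAT or TATTTGC or TATTTGT or TGTTTAC or TGTTTAT or TGTTTGC or TGTTTGT, a motif chosen after the values were known. Of the 8 windows, 3 held a match, those of Atp6v1b1, Atp6v1g3, and Slc26a4, beside 27.5% of all 32851 promoter windows of that length. The match began 98 bases before the start site in Atp6v1b1, 67 in Atp6v1g3, and 65 in Slc26a4. A match describes the letters and is not evidence of binding. The 250 bases before the start site are shown for the 2 members whose WT and Selenbp1-KO values did not overlap, with the match in capitals.
Atp6v1b1, chr6:83742767-83743016, plus strand: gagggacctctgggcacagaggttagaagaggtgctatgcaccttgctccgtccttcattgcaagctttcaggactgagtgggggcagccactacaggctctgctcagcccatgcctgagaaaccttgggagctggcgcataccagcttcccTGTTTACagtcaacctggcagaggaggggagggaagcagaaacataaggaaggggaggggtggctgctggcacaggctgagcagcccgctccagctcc
Slc26a4, chr12:31559985-31560234, minus strand: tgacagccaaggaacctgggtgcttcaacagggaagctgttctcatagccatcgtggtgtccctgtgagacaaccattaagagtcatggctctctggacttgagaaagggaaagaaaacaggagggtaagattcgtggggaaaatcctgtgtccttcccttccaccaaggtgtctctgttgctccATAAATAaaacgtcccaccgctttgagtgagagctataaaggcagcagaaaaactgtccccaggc

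Signals are given below as the log2 of the processed intensity minus the log2 of the 75th percentile of the same array, so that 0 is the level of that percentile. Values are listed by replicate number, as 2, 3, and 4 for WT and 1, 2, and 3 for Selenbp1-KO. Differences are Selenbp1-KO minus WT on the same scale, with the standard error (SE), the 95% interval, and the p adjusted over all probes (Benjamini–Hochberg), all from limma. Probes differ in their response, so no level is set against that of another gene. All 10 genes were well above background on all 6 arrays, as were 16 of 17 other intercalated cell genes in at least 1 genotype, so the transcripts of these cells were measured.

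The vacuolar H+-ATPase moves protons across the apical membrane with the energy of ATP. Atp6v1b1 encodes the B1 subunit of its cytosolic domain, the form found in intercalated cells, where it takes part in ATP hydrolysis. Atp6v1b1 had log2 signals of −0.91, −0.20, and −0.17 in the WT mice and of 0.028, −0.13, and 0.014 in the Selenbp1-KO mice. WT replicate 2 stood far below the other 5 arrays, which lie between −0.20 and 0.028, and the groups did not overlap. WT kidneys averaged −0.43 ± 0.42 (SD, n = 3) and those of Selenbp1-KO mice −0.028 ± 0.085 (SD, n = 3). The difference was 0.40 (SE 0.22, interval −0.13 to 0.94, adjusted p = 0.347), which is 1.32-fold. It was 0.16 without WT replicate 2, and 0.15 within the slide side.

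Atp6v0a4 encodes the a4 subunit of the membrane domain, which anchors the pump and forms part of the proton path. Its probe (NM_080467, mm9 chromosome 6, 37998491 to 37998550, minus strand) gave 4.60, 5.01, and 5.14 in WT mice against 4.96, 5.05, and 5.14 in Selenbp1-KO mice. Again WT replicate 2 was the lowest of the arrays, and the rest lay between 4.96 and 5.14 with the groups mixed. The difference was 0.14 (SE 0.16, interval −0.27 to 0.54, adjusted p = 0.717). It turned to −0.022 without WT replicate 2 and to −0.085 within the slide side.

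Atp6v1g3 encodes the G3 subunit of the stalk that holds the cytosolic domain. Its probe (NM_177397, mm9 chromosome 1, 140185743 to 140185802, plus strand) gave −1.27, −1.25, and −1.14 in WT mice against −0.90, −1.14, and −1.12 in Selenbp1-KO mice. Selenbp1-KO replicate 1 was the highest array and the other 2 Selenbp1-KO arrays were level with WT replicate 4. The difference was 0.17 (SE 0.11, interval −0.11 to 0.45, adjusted p = 0.467), and it was 0.092 without Selenbp1-KO replicate 1 and 0.083 within the slide side.

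Atp6v0d2 encodes the d2 subunit, which couples the 2 domains of the pump. The brighter probe gave −0.59, −0.49, and −0.45 in WT and −0.42, −0.55, and −0.50 in Selenbp1-KO kidneys. The groups overlapped over most of their range, and the difference was 0.022 (SE 0.10, interval −0.22 to 0.27, adjusted p = 0.936). The dimmer probe averaged −3.36 in WT and −3.46 in Selenbp1-KO mice, and its difference was −0.11 (SE 0.13, interval −0.44 to 0.22, adjusted p = 0.721), so the 2 probes of this gene differ in sign and both intervals hold 0.

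By the brightest probe of each gene, WT replicate 2 was the lowest of the 6 arrays for each of the 4 V-ATPase members. This did not hold for the dimmer Atp6v0d2 probe. There WT replicate 2 gave −3.41, above WT replicate 4 (−3.53) and the Selenbp1-KO arrays (−3.48, −3.49, and −3.43). Among the 21 other V-ATPase subunit genes, WT replicate 2 was the lowest for 7 and Selenbp1-KO replicate 2 for 8. WT replicate 2 was the lowest for 19.7% of the 18361 genes well above background on all arrays. As a median over the 4 members, WT replicate 2 lay 0.26 below the gene means, whereas the other 5 arrays lay between 0.020 and 0.16 above them. Gene by gene, WT replicate 2 deviated by −0.68 for Atp6v1b1, −0.38 for Atp6v0a4, −0.14 for Atp6v1g3, and −0.095 for Atp6v0d2. Without WT replicate 2 the differences were 0.16 for Atp6v1b1, 0.14 for Atp6v1g3, −0.022 for Atp6v0a4, and −0.019 for Atp6v0d2.

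**Figure D1:**
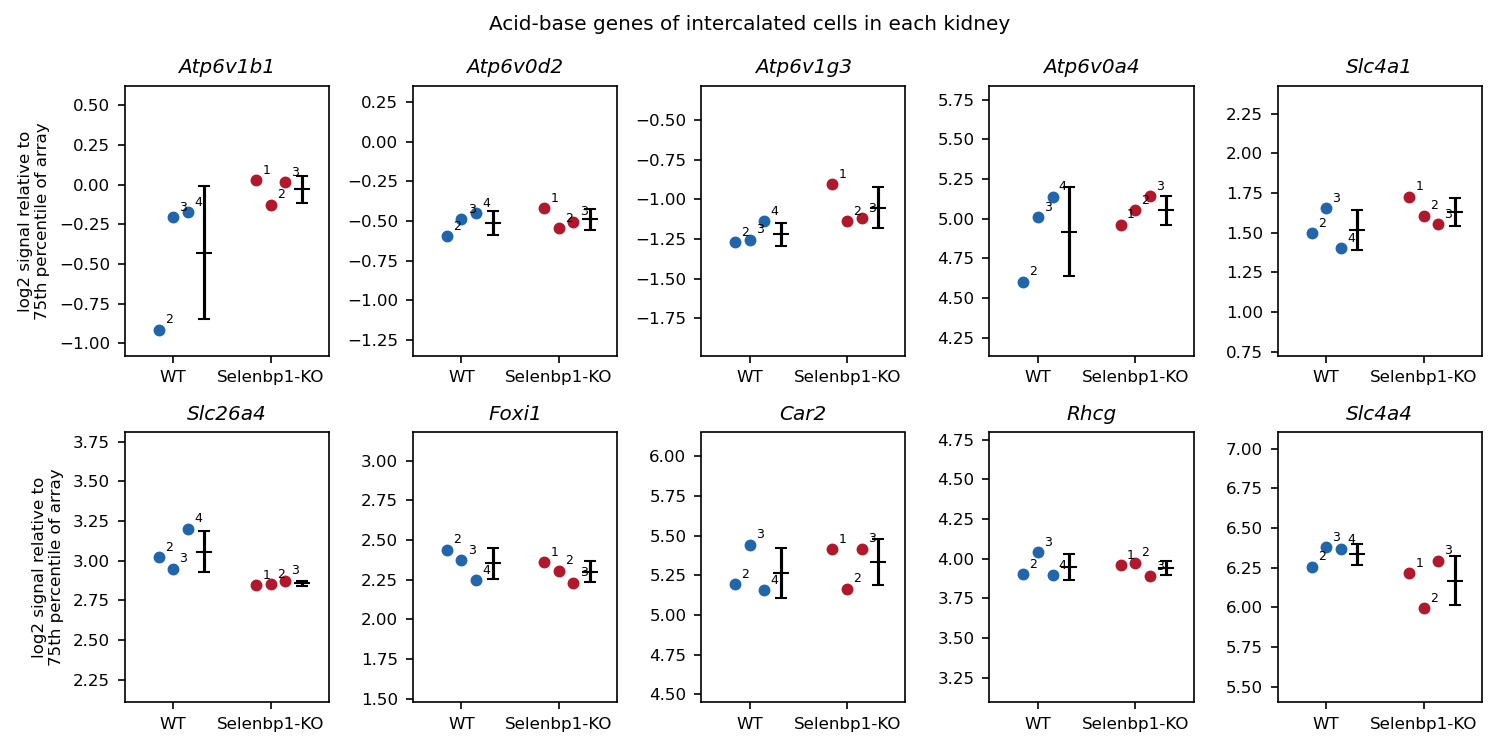
Log2 signal of each acid-base gene relative to the 75th percentile of its array (vertical axes, each spanning the same number of log2 units at its own level) in the WT (blue) and Selenbp1-KO (red) kidneys, 1 point per mouse with its replicate number; the bar beside each group is its mean ± SD over 3 arrays. WT replicate 2 lies low for Atp6v1b1 and Atp6v0a4, and the Slc26a4 values of Selenbp1-KO kidneys sit between 2.85 and 2.87, below all 3 WT values.

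Slc26a4 encodes pendrin, the apical chloride and bicarbonate exchanger by which type B cells secrete base. Its probe (NM_011867, mm9 chromosome 12, 32204766 to 32204825, minus strand) gave 3.02, 2.95, and 3.20 in WT mice against 2.85, 2.85, and 2.87 in Selenbp1-KO mice. Each Selenbp1-KO value was below each WT value, and the Selenbp1-KO arrays were close together. The means were 3.06 ± 0.13 (SD, n = 3) and 2.86 ± 0.015 (SD, n = 3). The difference was −0.20 (SE 0.11, interval −0.46 to 0.064, adjusted p = 0.341), and the WT signal was 1.15-fold the Selenbp1-KO signal. The estimate was below 0 in each of 18 alternative ways of processing, and the unadjusted p was under 0.05 in 4 of them. These were quantile normalization (difference −0.22), the quantile normalized values of the authors (−0.22), limma's trend and robust options (−0.20), and a block for the slide side (−0.34). Over all 18, the adjusted p of Slc26a4 from limma was at least 0.290. Without WT replicate 4, the highest array, the difference was −0.13.

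Slc4a1 encodes AE1, also called band 3, the basolateral exchanger of type A cells and a main membrane protein of red blood cells. Its probe (NM_011403, mm9 chromosome 11, 102210256 to 102210315, minus strand) gave 1.50, 1.65, and 1.40 in WT and 1.73, 1.61, and 1.55 in Selenbp1-KO kidneys. The highest array was Selenbp1-KO replicate 1 and the lowest WT replicate 4, with the others mixed. The difference was 0.11 (SE 0.12, interval −0.17 to 0.39, adjusted p = 0.663), and 0.23 within the slide side. The direction of Slc4a1 was the same in all 18 alternatives, but the difference fell to 0.053 without WT replicate 4, and to 0.063 without Selenbp1-KO replicate 1.

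Red blood cell markers were read in the same kidneys. Of 14 such markers, which did not include Slc4a1 or Car2, 13 were tested, and 7 were called, all higher in Selenbp1-KO kidneys (8.00% of all genes were called), with a median difference of 0.56 (median of all genes tested 0.13). One call, that of the globin chaperone gene Ahsp, is on a probe that was well above background on no array. Of the 7 markers well above background, 6 were called, with a median of 0.86 beside 0.016 for all such genes. None of the 13 passed at an adjusted p under 0.05. Hbb-b1, Hbb-b2, and Hbb-bt, which encode beta globin chains, differed by 1.26 (SE 0.22, adjusted p = 0.279), 1.17, and 1.02, and Alas2, the heme synthesis enzyme of erythroid cells, by 0.86. The alpha globin genes Hba-a1 and Hba-a2 differed by 0.56 and 0.53. Globin genes are near copies of each other, and their probes may read more than 1 of them. The summed signal of the 13 genes, in units of the 75th percentile of the array, was 549 to 723 in WT and 780 to 1174 in Selenbp1-KO kidneys, most of it from globin probes. The erythroid membrane genes Rhag, Epb42, Rhd, and Kel were not well above background on every array of either genotype. Ermap, an erythroid membrane gene that was well above background on all 6 arrays and is named after its values were seen, differed by −0.098 (SE 0.15, adjusted p = 0.790). The part of red blood cell RNA in the values of Slc4a1 and Car2 was not tested.

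Car2 encodes carbonic anhydrase II. Its probe (NM_009801, mm9 chromosome 3, 14900206 to 14900265, plus strand) gave 5.20, 5.44, and 5.16 in WT and 5.42, 5.17, and 5.42 in Selenbp1-KO kidneys. Both groups covered the same range. The difference was 0.068 (SE 0.13, interval −0.26 to 0.40, adjusted p = 0.838), and it was −0.022 after quantile normalization and 0.18 within the slide side. Car2 is on the chromosome of Selenbp1, 79.8 Mb from the Selenbp1 probe.

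Rhcg encodes the Rh glycoprotein through which ammonia crosses the membranes of collecting duct cells. The probe (NM_019799, mm9 chromosome 7, 86738278 to 86738337, minus strand) gave 3.90, 4.04, and 3.90 in WT and 3.96, 3.97, and 3.89 in Selenbp1-KO kidneys. The Selenbp1-KO values lay inside the WT range or just below it, and the difference was −0.0052 (SE 0.10, interval −0.25 to 0.24, adjusted p = 0.986). The basolateral Rh glycoprotein gene Rhbg, named here after its values were seen, had 2.50, 2.65, and 2.48 in WT and 2.93, 2.78, and 2.72 in Selenbp1-KO kidneys. Its groups did not overlap, and the difference of 0.26 (SE 0.11, adjusted p = 0.279) did not pass the threshold.

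Foxi1 encodes the transcription factor that intercalated cells need in order to form. The probe (NM_023907, mm9 chromosome 11, 34104352 to 34104411, minus strand) gave 2.44, 2.37, and 2.25 in WT and 2.36, 2.31, and 2.23 in Selenbp1-KO kidneys, with the groups overlapping. The difference was −0.054 (SE 0.11, interval −0.31 to 0.20, adjusted p = 0.835), and it turned to 0.051 within the slide side.

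Slc4a4 encodes the sodium and bicarbonate cotransporter NBCe1, through which the proximal tubule returns reclaimed bicarbonate to the blood. The brightest of its 4 probes (NM_018760, mm9 chromosome 5, 89667693 to 89667752, plus strand) gave 6.26, 6.38, and 6.37 in WT and 6.22, 5.99, and 6.29 in Selenbp1-KO kidneys. Selenbp1-KO replicate 2 was the lowest array and replicate 3 lay inside the WT range. The difference was −0.17 (SE 0.12, interval −0.46 to 0.13, adjusted p = 0.498). A further probe of the same transcript (89663826 to 89663885) gave −0.32 (SE 0.16, adjusted p = 0.298), and a probe of ENSMUST00000113216 (89471169 to 89471228) gave −0.28 (SE 0.13, adjusted p = 0.279), so all 3 probes well above background had estimates below 0. The probe of ENSMUST00000135283 was not well above background on any array. The estimate of Slc4a4 was below 0 in all 18 alternatives, including the mean of all its probes (−0.13). The unadjusted p of the brightest probe was under 0.05 after quantile normalization (−0.28), in the authors' quantile normalized values (−0.25), and with limma's trend and robust options (−0.17). The adjusted p of Slc4a4, from limma or the methods' t-test, was at least 0.359 over all 18. Without Selenbp1-KO replicate 2 the difference was −0.079.

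**Figure D2:**
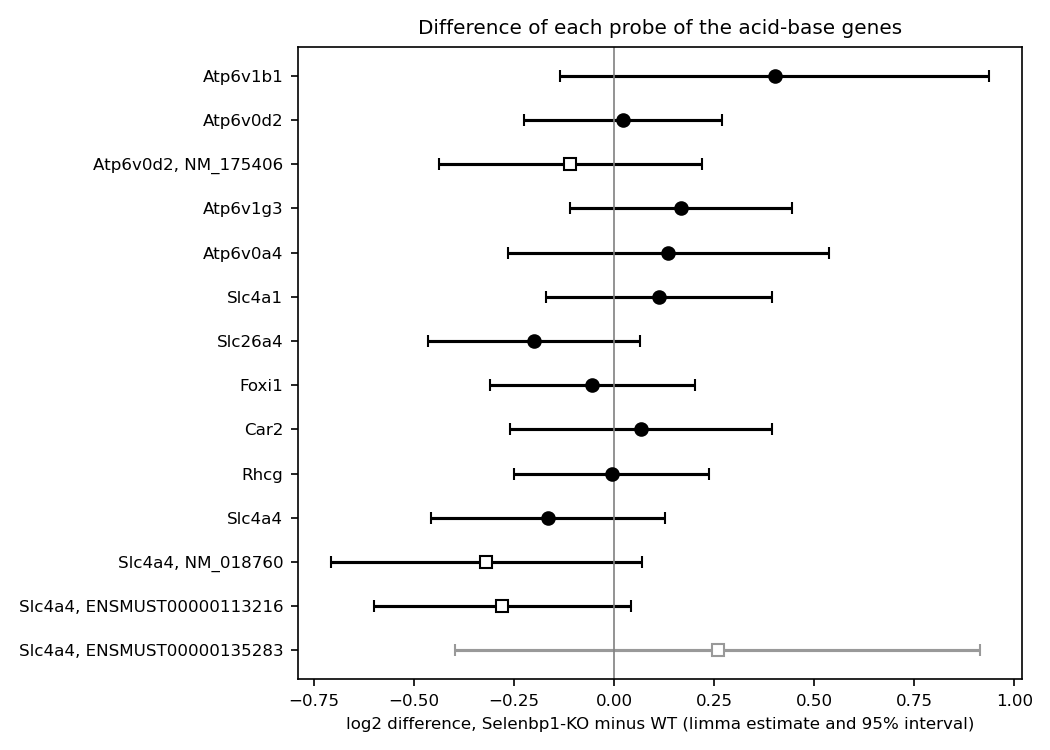
Log2 difference, Selenbp1-KO minus WT, with its 95% interval from limma for each of the 14 probes of the acid-base genes; filled circles are the brightest probe of each gene, open squares its further probes with their transcript, and the gray one is not well above background. Every interval crosses 0, and the estimates run from 0.40 for Atp6v1b1 to −0.32 for a further Slc4a4 probe.

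Among all 37028 genes, 8.00% were called at an unadjusted p under 0.05, of which 2544 were higher and 420 lower in Selenbp1-KO kidneys, and among the 19263 genes well above background in a genotype 5.79% were called. The members had 0 of 10 calls at the unadjusted threshold in limma, 0 at an adjusted p under 0.05, which 0.00540% of all genes passed, and 0 at the unadjusted threshold in the methods' t-test. In the alternatives with calls, all of them lower in Selenbp1-KO kidneys, the members called were Slc26a4 and Slc4a4 (2 of 10) beside 3.85% of all genes lower after quantile normalization, 3.70% in the authors' values, and 1.97% with trend and robust options, and Slc26a4 (1 of 10) beside 3.65% with the slide side blocked. After quantile normalization the calls over all genes were 1946 higher and 1427 lower. WT and Selenbp1-KO values did not overlap in 2 of the 10 members, beside 14.1% of all genes and 19.0% of those well above background. The median difference of the members was 0.045. The median of all genes was 0.13 with the scaling used here and 0.0038 after quantile normalization, whereas among genes well above background it was 0.016. Relative to the median of genes well above background, the difference was −0.22 for Slc26a4 and 0.39 for Atp6v1b1. For the brightest probes, the 95% intervals of the 9 members other than Atp6v1b1 all lay between −0.46 and 0.54, so a fall of more than 1.38-fold or a rise of more than 1.45-fold is outside the interval of each of these probes, and for Atp6v1b1 the upper bound was 1.92-fold. The intervals of the further Slc4a4 probes well above background reached lower, to −0.71 and −0.60. Differences inside these intervals could not be resolved with 3 arrays a group.

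**Figure D3:**
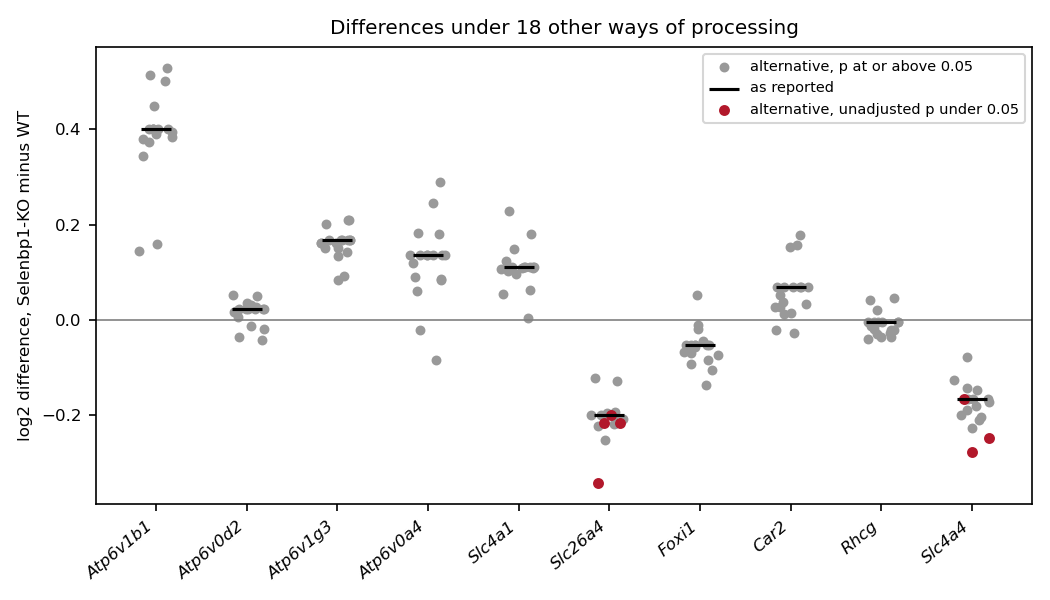
Log2 difference of each acid-base gene, Selenbp1-KO minus WT, as reported (black line) and under each of 18 alternative ways of processing (points; red where the unadjusted p is under 0.05). Red points occur for Slc26a4 (4) and Slc4a4 (3) and lie below 0, and the 2 low points of Atp6v1b1 are those without WT replicate 2 and within the slide side.

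Other genes of the same pathways were described through lists written with earlier results of these data known. Of 80 such genes, 2 were called, with 1 in each direction, and the median difference was 0.041. The calls are 2.50% of the list, beside 8.00% of all genes and 5.79% of those well above background. The other V-ATPase subunits had 11 of 21 estimates above 0 and 1 call. This was Atp6v0b, a subunit of the proton-carrying ring, with 4.06, 4.12, and 4.14 in WT and 4.51, 4.29, and 4.36 in Selenbp1-KO mice, which differ by 0.28 (SE 0.11, adjusted p = 0.279). The widely expressed counterparts of the 4 V-ATPase members, named after their values were seen, differed by −0.012 (Atp6v1b2), −0.086 (Atp6v0a1), 0.036 (Atp6v0d1), and 0.089 (Atp6v1g1).

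Of 17 other intercalated cell genes, 1 was called, beside 8.00% of all genes and 5.79% of those well above background. Adgrf5, which encodes an adhesion receptor also found in endothelium, had 0.81, 0.85, and 0.75 in WT and 0.48, 0.64, and 0.52 in Selenbp1-KO mice, with a difference of −0.26 (SE 0.10, adjusted p = 0.279). Some genes of type B cells beside pendrin were named after their values were seen, and they are not all such genes of the list. The differences were 0.059 for Slc4a9, which encodes the basolateral exchanger AE4, and 0.061 for Slc4a8, also an exchanger gene. They were −0.095 for Insrr, an alkali-sensing receptor, and 0.074 for Oxgr1, the receptor for alpha-ketoglutarate. None of these passed the threshold.

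No call was made among 15 other carbonic anhydrases (median difference 0.087), 19 other bicarbonate, chloride, and sodium-proton exchangers (0.059), or 14 genes of ammonia production and transport (0.025). The share called was 8.00% of all genes and 5.79% of those well above background. Over their genes well above background, of which there were 13, 16, and 13, the medians were 0.081, −0.022, and 0.024, beside 0.016 for all such genes.

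Macrophages and osteoclasts also express Atp6v0d2, and their markers were read in the same kidneys. Of 14 markers, 8 were called, all higher in Selenbp1-KO kidneys (8.00% of all genes were called), with a median difference of 0.38, and none at an adjusted p under 0.05. Ms4a7 differed by 0.81, Lyz2, the lysozyme gene of macrophages, by 0.74, the mannose receptor gene Mrc1 by 0.70, and the complement gene C1qc by 0.60. Acp5 and Csf1r, which have the brightest probes of the list beside Lyz2, differed by −0.010 and 0.17 and did not pass. The summed signal, in units of the 75th percentile, was 68.9 to 72.7 in WT and 72.3 to 80.6 in Selenbp1-KO kidneys, with 65.4% to 75.5% of it from Acp5 alone. The fusion genes of osteoclasts, Dcstamp and Ocstamp, were not well above background on every array of either genotype. Atp6v0d2 differed by 0.022 beside these values, and the part of macrophage RNA in it was not tested.

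Fat tissue markers, of which Fabp4, Cidec, and Adipoq have the brightest probes, were higher by estimate in 6 of 6 genes with a median difference of 0.75. None was called, beside 8.00% of all genes. Their summed signal was 17.5 to 35.5 in WT and 21.3 to 81.3 in Selenbp1-KO kidneys, and it was high in Selenbp1-KO replicates 1 and 2. The part of attached fat in the values of the acid-base genes was not tested.

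**Figure D4:**
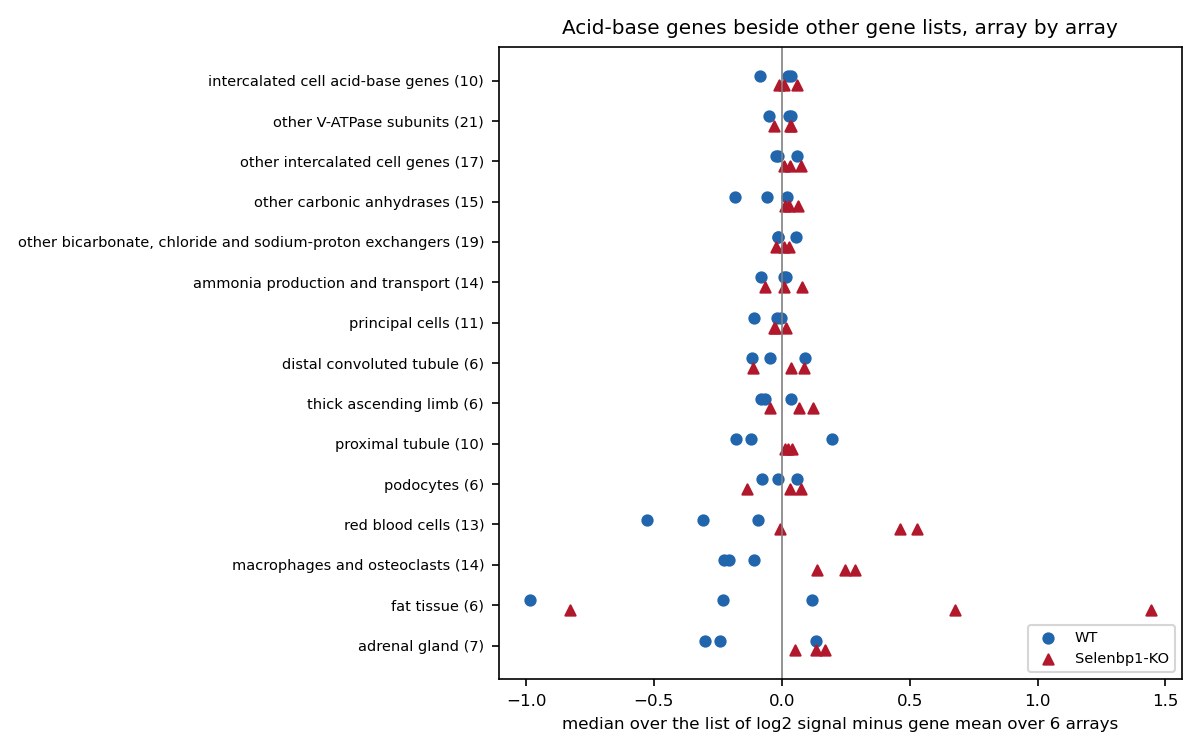
Median over each gene list of the log2 signal minus the gene's mean over the 6 arrays (horizontal axis), 1 point per array for WT (blue circles) and Selenbp1-KO (red triangles), with the number of genes tested in brackets. The acid-base genes of intercalated cells lie between −0.085 and 0.059 on all arrays, whereas the red blood cell and macrophage lists have all 3 Selenbp1-KO arrays above the 3 WT arrays.

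The genes closest to the mean profile of the 10 members over the 6 arrays, by root mean square distance of centered log2 signals among 15882 genes, were Raver2 (0.024), Srpk1 (0.024), Smarcad1 (0.025), Igf1 (0.028), and Ybx2 (0.028), beside a median distance of 0.147. The profile itself varies little, with an SD of 0.074 over the arrays. Only genes outside the members that were well above background on all arrays and had at least that SD were candidates. Of the members, Atp6v0d2 was the closest to their mean profile (0.028) and Atp6v1b1 the farthest (0.259). Each member is part of that mean, so these distances do not test whether a profile is shared.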

How the data were processed

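The 6 arrays are one-color Agilent arrays, 3 of WT and 3 of Selenbp1-KO kidneys. For each, the authors deposited the output of Feature Extraction (10.7.1.1 per the file headers, 9.5.1.1 per the labels), whose processed intensity is on a linear scale after subtraction of background and detrending, with a p-value against background that the authors deposited for each spot, and a table of 1 quantile normalized intensity per probe. The headers and labels also name different array designs, and the header's probe annotation (mm9) was used.

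Processed intensities were divided by the 75th percentile of the 59305 non-control spots of their array and put on the log2 scale (percentile 477 to 751; 51.8% to 55.5% of spots well above background; no saturated spot). Spots flagged as non-uniform or population outliers were left out and spots of 1 probe averaged. Probes whose detection p was below 0.05 on 1 array or more (56097) entered limma 3.58.1 in R 4.3.3 (lmFit, eBayes, two-sided), which was tested on simulated data. Calls use the methods' threshold of an unadjusted p below 0.05, and p-values were adjusted over all probes. Names come from accessions matched to RefSeq GRCm38.p6 (32994 probes), and otherwise from the file. The brightest probe over the 6 arrays stands for a gene. Named genes are all 10 members, up to 4 called genes well above background of each other list, the 3 brightest of each marker list, the 5 closest in profile, and Selenbp1, with exceptions said in the text, and some marker genes of these lists are not reported here by name. The members and lists were chosen with earlier results of these data known. The 18 alternatives were background correction by normexp (offset 50), quantile and median scaling, the authors' values, a filter on background, no filter, flagged spots kept, trend and robust options, the methods' t-test, slide side and replicate number as blocks, the mean of all probes, and leaving out each array.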

Additional observations from a re-analysis of the deposited data

How the results depend on the processing

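No member was called higher in any of the 18 alternatives, in which 903 to 11754 of all genes were. The number called lower, 0 as reported, was 2 after quantile normalization, 2 in the authors' values, and 2 with limma's trend and robust options (Slc26a4 and Slc4a4 each time), and 1 when the slide side was a block (Slc26a4). It was 0 in the other 14, including each of the 6 without an array. The median difference of the members ranged from −0.015 (without WT replicate 2) to 0.097 (without WT replicate 3). Atp6v1b1, Atp6v1g3, Slc4a1, Slc26a4, and Slc4a4 kept their direction throughout. Car2 turned to −0.022 after quantile normalization and Atp6v0d2 to −0.044 as the mean of its probes. Blocking on the slide side turned Atp6v0a4 to −0.085, Rhcg to 0.046, Foxi1 to 0.051, and Atp6v0d2 to −0.037. With 1 array left out, Atp6v0a4 ranged from −0.022 to 0.25, Rhcg from −0.031 to 0.042, Atp6v0d2 from −0.019 to 0.052, Car2 from 0.014 (without WT replicate 4) to 0.16 (without WT replicate 3), and Foxi1 from −0.11 (without WT replicate 4) to −0.011 (without WT replicate 2). WT and Selenbp1-KO share only the numbers 2 and 3, and nothing says that a number pairs mice. The correlations of the deviations were 0.171 and 0.187 for the same number, and from −0.326 to 0.186 between different numbers. With the number as a replicate block, the median was −0.012, Car2 turned to −0.028, Slc4a1 fell to 0.0041, no member was called, and 12286 genes were called against 2964. Over all genes, calls numbered 9756 with median scaling, 4463 with normexp, 5213 with trend and robust options, and with 1 array left out from 1294 (WT replicate 2) to 11812 (WT replicate 4). The cause of these changes was not tested. Dim probes, such as the fourth of Slc4a4, limit what can be read from them.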

Other observations

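The neighbors of intercalated cells along the nephron were described by marker lists as well. Principal cells, which share the collecting duct with intercalated cells and take up sodium and water, had 0 calls among 11 markers (8.00% of all genes were called) and a median difference of 0.020 (Selenbp1-KO minus WT, log2). The brightest probes of that list, of Fxyd4, Kcnj1, and Aqp3, differed by 0.023, 0.083, and −0.11. Over the 10 principal cell markers well above background the median was −0.046. The largest estimates of the list, named after their values were seen, were lower, at −0.71 for the water channel gene Aqp4 (SE 0.29, adjusted p = 0.279), −0.27 for Gata3, and −0.26 for Aqp2, and none passed the threshold. Among 6 markers of the distal convoluted tubule, led by Calb1, Slc12a3, and Pvalb, 1 was called, beside 8.00% of all genes. This was Pvalb, which encodes parvalbumin and was higher (0.32, SE 0.11, adjusted p = 0.279 from limma). The median of the list was 0.0032 (0.063 over the 5 well above background). The 6 markers of the thick ascending limb, led by Umod, Slc12a1, and Cldn10, had a median of 0.097 and no call, beside 8.00% of all genes.

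The 10 proximal tubule markers, led by Kap, Gpx3, and Miox, had a median of 0.015 and no call (8.00% of all genes were called), beside the Slc4a4 differences of −0.17 to −0.32 over its probes well above background. Of 6 podocyte markers, which include Wt1 and Synpo, 1 was called, beside 8.00% of all genes, and the median was −0.032. The call was Synpo, which was higher (0.29, SE 0.11, adjusted p = 0.279 from limma). Of 7 adrenal markers, led by Hsd3b1, Th, and Cyp21a1, none was called (8.00% of all genes were called), and the median was 0.24 (0.11 over the 4 well above background). Cyp11b1, Cyp11b2, and Pnmt were not well above background on every array of either genotype.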
